A study of Mus musculus with 6 samples.

Results

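Of 22 fibroblast growth factor genes with a probe on the array, 9 were examined here, on the 16 probes that the platform annotation gives them: Fgf1, Fgf2, Fgf5, Fgf7, Fgf9, Fgf10, Fgf13, Fgf18 and Fgf21. The whole array holds 45281 probes and 19057 named genes. The 9 genes were chosen by symbol with their measured levels and differences between the FEAT and the control clones known, so these values are given as a description. An adjusted p beside one of them comes from the fit over all 27169 probes that passed a filter on low signal, shows where the probe stood among them, and is no independent support. The data came from 6 stable clones of NIH3T3, an immortalized fibroblast line from embryos of NIH Swiss mice, with 1 one-colour Illumina bead array of total RNA per clone.

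The clones FEAT-3, FEAT-15 and FEAT-20 expressed human FEAT (METTL13, now named EEF1AKNMT) from its coding sequence driven by the EF1alpha promoter. They had been selected with blasticidin S at 10 µg/ml for 7 days and picked for high FEAT protein. The clones ΔccdB-1, ΔccdB-2 and ΔccdB-3 carried the same vector without FEAT and with its ccdB gene deleted. Whether these control clones went through the same selection is not given in the sources used here. Each array is 1 clone, so p-values set the group difference against the spread between arrays. In that spread, differences between clones, cultures and array handling cannot be told apart, and the number of arrays limits the precision.

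Fibroblast growth factors are mostly secreted proteins that bind receptor tyrosine kinases together with heparan sulfate and start the RAS and ERK cascade. Fgf7, known as keratinocyte growth factor, and its close relative Fgf10 are made by mesenchymal cells and act on neighbouring epithelium through a splice form of Fgfr2. Other members have other habits: Fgf1 and Fgf2 leave the cell without a signal peptide, Fgf13 stays inside the cell, and Fgf21 circulates as a hormone.

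Of the 9 ligands, Fgf7 and Fgf10 gave signal above background in all 6 clones, and only Fgf7 among these 9 separated the FEAT clones from the control clones with an adjusted p under 0.05. Fgf7 was 2.56-fold higher in the FEAT clones, whereas the 3 Fgf10 probes differed by at most 0.13 on the log2 scale in either direction. Above background means above a limit set on each array, 3 SDs above the mode of the log2 intensities, with the SD taken from the values under the mode, which came to intensities between 93.2 and 99.0. In all, 4 of the 16 probes lay above it on all 6 arrays, against 35% of all probes, and 2 of the 9 genes, against 45.5% of all named genes. With the limit at 2 SDs or at 4 SDs the number of probes was again 4. In RNA from whole cultures, fewer cells that express a gene and less RNA per cell cannot be told apart.

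**Figure D1:**
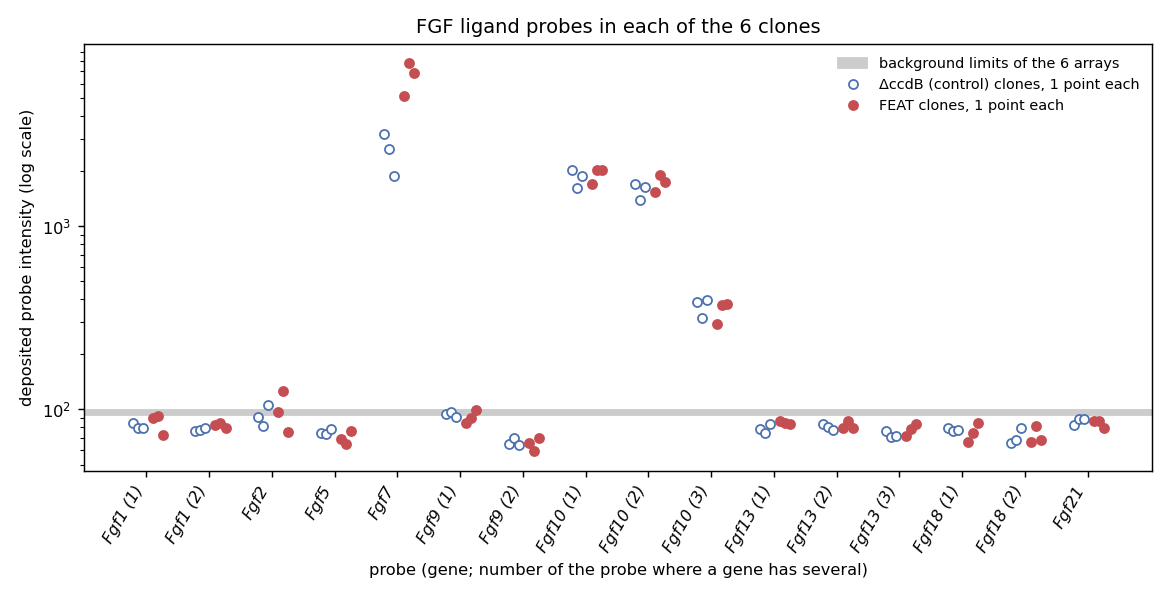
Deposited intensity (log axis) of the 16 probes of the 9 ligands, 1 point per clone, open for the 3 ΔccdB clones and filled for the 3 FEAT clones, with a grey band over the background limits of the 6 arrays (93.2 to 99.0). The Fgf7 probe and the 3 Fgf10 probes lie above the band in every clone, and the 3 filled Fgf7 points lie above its 3 open points.

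The Fgf7 probe read intensities of 3201, 2643 and 1882 in ΔccdB-1, ΔccdB-2 and ΔccdB-3. It read 5119, 7752 and 6846 in FEAT-3, FEAT-15 and FEAT-20. All 3 FEAT clones were higher than all 3 control clones, and the lowest FEAT clone was 1.60 times the highest control clone. The clones also differed within each group, by 1.70 times between the highest and the lowest control clone and by 1.51 times between the FEAT clones.

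The mean intensity of Fgf7 was 2575 ± 662 in the control clones and 6572 ± 1337 in the FEAT clones (SD, n = 3 clones each). On the normalized log2 scale the FEAT clones were higher by 1.36, with an SE of 0.18 and a 95% interval of 0.97 to 1.75, which is a fold of 1.96 to 3.36 (limma, adjusted p = 0.0192). Of the 11 ligand probes that passed the filter, this was the 1 called at an adjusted p under 0.05, where 0.184% of all 27169 probes tested were called, and 0.118% were called as higher in the FEAT clones. It was also the 1 ligand probe with no overlap between the groups on that scale, which 14.1% of all probes tested had, 7.18% with the FEAT clones higher. By deposited intensity a probe of Fgf1 and a probe of Fgf13 did not overlap either, by a narrow margin. Neither was above background on any array. By p the Fgf7 probe ranked 10 among all probes tested, and by size of rise it ranked 31. Fgf7 has 1 probe on this array, so no other probe of the gene could be set beside it.

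The size of the Fgf7 difference depended little on background correction, scaling and array weights, while its call depended on which clones were in the fit. It ran from 1.34 to 1.36 over 9 other settings of background correction, scaling, filter and variance. The filter, intensity trend and robust settings reuse the same normalized values, so they can change the p but not the size. Limma called Fgf7 in all 9 settings, with adjusted p from 0.00718 to 0.0307. With 1 clone left out the difference ran from 1.17 to 1.48, and Fgf7 was called in 4 of 6 such fits. Without FEAT-3 and without FEAT-15 the call was close to the threshold (limma, adjusted p = 0.0480 and 0.0486). Without ΔccdB-1, the control clone with the highest Fgf7, the log2 difference was larger, at 1.48 (limma, unadjusted p = 2.37e-05). The adjusted p of that fit was 0.148, and then 0 probes of the whole array were called with limma (1934 at an unadjusted p under 0.05). Without ΔccdB-3, the control clone with the lowest Fgf7, the log2 difference was 1.17, the adjusted p 0.0584, and 10 probes of the whole array were called.

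**Figure D2:**
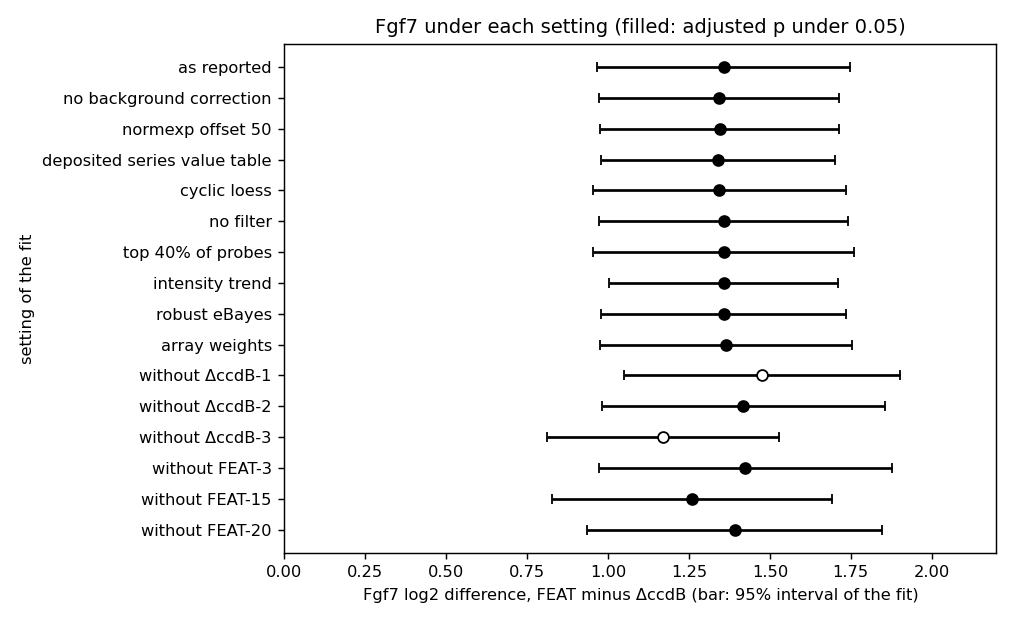
Fgf7 log2 difference, FEAT minus ΔccdB, with its 95% interval under 16 fits, filled where the adjusted p is under 0.05. All values lie between 1.17 and 1.48, and the open points are the fits without ΔccdB-1 (adjusted p = 0.148) and without ΔccdB-3 (adjusted p = 0.0584).

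Fgf10, the ligand of lung and limb budding, is the nearest relative of Fgf7 in receptor use, and its transcript was measured by 3 probes. The brightest read 2034, 1615 and 1871 in ΔccdB-1, ΔccdB-2 and ΔccdB-3. In FEAT-3, FEAT-15 and FEAT-20 it read 1705, 2017 and 2035. The groups overlapped almost completely, with ΔccdB-2 the lowest clone and FEAT-20 and ΔccdB-1 together at the top.

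The log2 difference of this Fgf10 probe was 0.0066, with a 95% interval of -0.28 to 0.29 (limma, adjusted p = 0.994). The next probe, at 1574 ± 161 and 1727 ± 176 (SD, n = 3 clones each), gave 0.083 with an interval of -0.21 to 0.38. The dimmest, at 366 ± 45.3 in control clones and 348 ± 48.3 in FEAT clones, gave -0.13 with an interval of -0.44 to 0.17. All 3 intervals include 0 and lie below the lower end of the Fgf7 interval, 0.97. The deviation of single clones was smaller for Fgf10 than for Fgf7: the SD was 11.5% of the mean in the control clones on its brightest probe, against 25.7% for Fgf7.

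**Figure D3:**
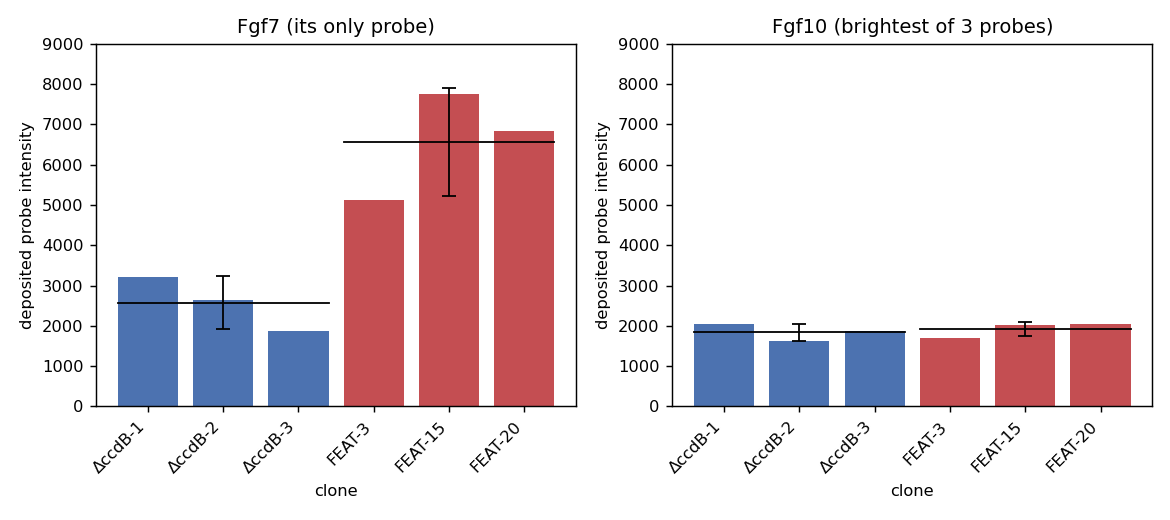
Deposited intensity of the Fgf7 probe (left) and of the brightest Fgf10 probe (right) in each clone, on axes that start at 0, with the group mean as a line and the SD over 3 clones as an error bar. The Fgf7 bars of the FEAT clones (5119 to 7752) all exceed those of the ΔccdB clones (1882 to 3201), and the Fgf10 bars of both groups lie between 1615 and 2035.

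The ratio of the Fgf7 to the brightest Fgf10 intensity on the same array does not depend on how the arrays were scaled. Its level depends on the probes, so only its change between clones is read. It was 1.57, 1.64 and 1.01 in ΔccdB-1, ΔccdB-2 and ΔccdB-3, and 3.0, 3.84 and 3.37 in FEAT-3, FEAT-15 and FEAT-20. The groups did not overlap, and the mean log2 ratio was 1.30 higher in the FEAT clones. With the other Fgf10 probes as the reference the log2 ratio was 1.23 and 1.44 higher. Each ratio uses the same Fgf7 probe, and Fgf10 differed little between the groups. The ratios therefore restate the Fgf7 difference without array scaling and are no further support for it. These values came from uncorrected intensities, and the comparison was added after the values were seen.

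The stretches before the annotated starts of Fgf7 and Fgf10 are shown because these are the ligands with signal, and their differences between the groups were unlike. They are the 250 bases upstream on the plus strand, from RefSeq on GRCm38.p6, with CG dinucleotides in capitals.
Fgf7, chr2:126034408-126034657: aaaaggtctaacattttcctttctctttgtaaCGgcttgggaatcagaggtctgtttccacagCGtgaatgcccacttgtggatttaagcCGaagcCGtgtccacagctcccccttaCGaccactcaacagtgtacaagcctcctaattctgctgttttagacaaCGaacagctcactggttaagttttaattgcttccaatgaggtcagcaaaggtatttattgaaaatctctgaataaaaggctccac
Fgf10, chr13:118714449-118714698: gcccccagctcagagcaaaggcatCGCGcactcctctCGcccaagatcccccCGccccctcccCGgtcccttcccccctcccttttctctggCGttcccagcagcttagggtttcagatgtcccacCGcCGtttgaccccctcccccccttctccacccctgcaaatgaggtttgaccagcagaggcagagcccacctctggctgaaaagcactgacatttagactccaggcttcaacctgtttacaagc
The Fgf7 stretch held 6 CG dinucleotides and 43.6% G and C, and that of Fgf10 held 8 and 61.2%, where the medians over 32841 promoters of this length were 6 and 52.4%.

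Motifs were looked for on both strands in the same stretches of the 8 ligands that the RefSeq promoter table held. They were the TATA box (TATAAA), AP-1 (TGANTCA), CRE (TGACGTCA), TEAD (GGAATG), EGR (GCGNGGGCG), the E-box CACGTG, the ATF4 composite element (TGATGNAA) and the SRF CArG box. None of the 8 motifs was in the stretch of Fgf7 or in that of Fgf10. Of all promoters, 12.4% held the TATA box, 6.75% AP-1, 1.55% CRE, 12.6% TEAD, 4.70% EGR, 6.02% the E-box, 3.45% the ATF4 element and 1.47% the CArG box. The EGR motif was in the stretch of Fgf2, and in 1 of the 4 of Fgf13, another of which held AP-1. No match overlapped a match of another motif. A match is a string of letters, not a measured site.

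Fgf21, a hormone best known from liver and fat that signals through the coreceptor β-Klotho, read 82.2, 88.8 and 89.0 in ΔccdB-1, ΔccdB-2 and ΔccdB-3. It read 86.2, 86.1 and 79.5 in FEAT-3, FEAT-15 and FEAT-20. None of these 6 values lay above the background limit, so no difference is given. Fgf21 is a textbook target of ATF4, the transcription factor of the amino acid response, and its upstream stretch held the ATF4 element, with its most upstream base 139 bases before the start, an E-box and a TATA box. The stretch is shown for that element, on the minus strand and with the matches in capitals, in the order ATF4 element (read on the opposite strand), E-box and TATA box.
Fgf21, chr7:45615491-45615740: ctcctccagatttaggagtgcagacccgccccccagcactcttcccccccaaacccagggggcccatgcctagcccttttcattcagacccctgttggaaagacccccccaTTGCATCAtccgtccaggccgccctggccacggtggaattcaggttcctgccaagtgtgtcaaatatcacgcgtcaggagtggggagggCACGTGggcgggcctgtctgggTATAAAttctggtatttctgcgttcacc

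Other targets of ATF4 had signal in these clones. Of 12 genes on the array, Atf4 itself and targets of ATF4, 11 lay above background on all 6 arrays, against 45.5% of all named genes. A negative difference was found for 11 of the 12, with a median of -0.32 on the log2 scale against 0.0071 over all 13315 genes tested. Of the 12, 2 had an unadjusted p under 0.05, where 10.1% of all genes tested did. The list was chosen with earlier results of these data known, so the shared direction is a description. Chac1, which degrades glutathione, was the 1 with an adjusted p under 0.05, where 0.225% of all genes tested were called and 0.0901% were called lower. It read 7345, 10724 and 9406 in ΔccdB-1, ΔccdB-2 and ΔccdB-3 and 3772, 2729 and 4376 in FEAT-3, FEAT-15 and FEAT-20. The level of Chac1 fell by 1.40 on the log2 scale (SE 0.22, limma, adjusted p = 0.0376), and this call was lost in 3 of the 9 other settings. With 1 clone left out it held only without ΔccdB-2, and in the other 5 fits the adjusted p was 0.0524 to 0.201. Ddit4, Cth and Trib3 had differences of -0.67, -0.49 and -0.57 and did not pass (adjusted p = 0.254, 0.590 and 0.599). Single clones weighed on the size: Trib3 had -0.19 without FEAT-15 and -0.93 without FEAT-3, and Cth had -0.24 without FEAT-15 and -0.25 without ΔccdB-2.

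Fgf2, a mitogen of fibroblasts bound to heparan sulfate in the matrix, lay at the edge of background. Its 1 probe read 90.8, 81.0 and 106 in ΔccdB-1, ΔccdB-2 and ΔccdB-3, and 96.4, 126 and 75.1 in FEAT-3, FEAT-15 and FEAT-20. It was above the limit on 1 of 3 control and 2 of 3 FEAT arrays, and the groups overlapped with FEAT clones at both ends. The log2 difference was 0.070, with a wide 95% interval of -0.56 to 0.70 (limma, adjusted p = 0.967).

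Fgf9, a ligand of mesenchymal and gonadal development, was measured by 2 probes. The brighter read 93.8, 96.8 and 90.4 in the control clones in numbered order and 84.4, 89.3 and 99.5 in FEAT-3, FEAT-15 and FEAT-20. It was above the limit on 1 array of each group, and its log2 difference was -0.15 (95% interval -0.45 to 0.15, limma, adjusted p = 0.789). The other Fgf9 probe read 59.0 to 69.6 and was above the limit on none of the 6 arrays.

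The remaining ligands were not above background on any array, and no difference is given for them. The 2 probes of Fgf1, which binds all the receptors of the family, read between 72.9 and 91.6. Fgf5, a regulator of the hair cycle, read between 65.1 and 77.9. The 3 probes of Fgf13, which binds sodium channels and microtubules inside neurons, read between 70.5 and 86.5. The 2 probes of Fgf18, a ligand of cartilage and bone growth, read between 65.6 and 83.8. At such levels these arrays cannot tell a low transcript from none. The filter left out 1 probe each of Fgf5, Fgf9 and Fgf13 and both of Fgf18, so Fgf5 and Fgf18 had no tested probe.

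The 13 other fibroblast growth factor genes had 21 probes, and 0 of them lay above background on all 6 arrays. Of the 8 genes tested, limma called 0, where 0.225% of all genes tested were called, and 2 had an unadjusted p under 0.05, where 10.1% of all genes tested did. Fgf22 read 91.0, 71.6 and 73.4 in the control clones in numbered order and 94.1, 91.1 and 103 in FEAT-3, FEAT-15 and FEAT-20, with 1 FEAT array above the limit (adjusted p = 0.334). Fgf3 read 86.5 to 92.5 in the ΔccdB clones and 69.4 to 82.1 in those with FEAT, not above the limit on any array (adjusted p = 0.335). Fgf17 and Fgf14 were not above the limit on any array either. Fgf23 was above it on 5 of 6 arrays and Fgf12 on 4, with log2 differences of 0.044 and -0.011 on their brightest probes.

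Receptors were tested as well, since a ligand acts only on a cell that has one. Fgfr1, Fgfr2 and the receptor-like Fgfrl1, which lacks a kinase domain, were above background on all 6 arrays on at least 1 probe. Fgfr3, Fgfr4 and the klotho coreceptors Kl and Klb were above it on none. Of the 4 genes tested, limma called 0, and 1 had an unadjusted p under 0.05 (0.225% and 10.1% of all genes tested). The median log2 difference of these 4 was -0.055, which includes Fgfr4 at 0.34 without signal above background.

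Fgfr2, the receptor gene of Fgf7 and Fgf10, read 1531, 1214 and 1629 on its brightest probe in ΔccdB-1, ΔccdB-2 and ΔccdB-3, and 1558, 1592 and 1551 in FEAT-3, FEAT-15 and FEAT-20. By these intensities the FEAT clones lay inside the range of the control clones. After normalization the groups overlapped, with FEAT-3 the highest clone at a log2 level of 10.76 and the control clones between 10.28 and 10.69. The log2 difference was 0.068 (95% interval -0.27 to 0.41, limma, adjusted p = 0.933), and that of the next probe, which was also above background on all arrays, was -0.040. A dimmer Fgfr2 probe read 81.1 to 96.8 and was above the limit on 1 array. The dimmest read 70.7 to 87.5 and was not above it on any. Which splice forms these probes read is not given in the sources used here, so the epithelial form that binds Fgf7 was not measured apart.

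Fgfr1, another receptor gene of the family, read 399, 311 and 385 in ΔccdB-1, ΔccdB-2 and ΔccdB-3, and 244, 332 and 278 in FEAT-3, FEAT-15 and FEAT-20. The groups overlapped by these intensities, with FEAT-15 above ΔccdB-2, and did not overlap after normalization, as for 14.1% of all probes tested. The log2 difference of -0.46 (95% interval -0.79 to -0.14) did not pass (limma, adjusted p = 0.349), and no array gave signal above background on the other Fgfr1 probe. Fgfrl1 read 776 ± 64.4 in the ΔccdB clones and 717 ± 81.5 in those with FEAT (SD over 3 clones), a log2 difference of -0.18 (adjusted p = 0.739). Its groups also overlapped by intensity and did not overlap after normalization. Fgfr4 read 67.2 to 94.3 over the 6 clones.

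**Figure D4:**
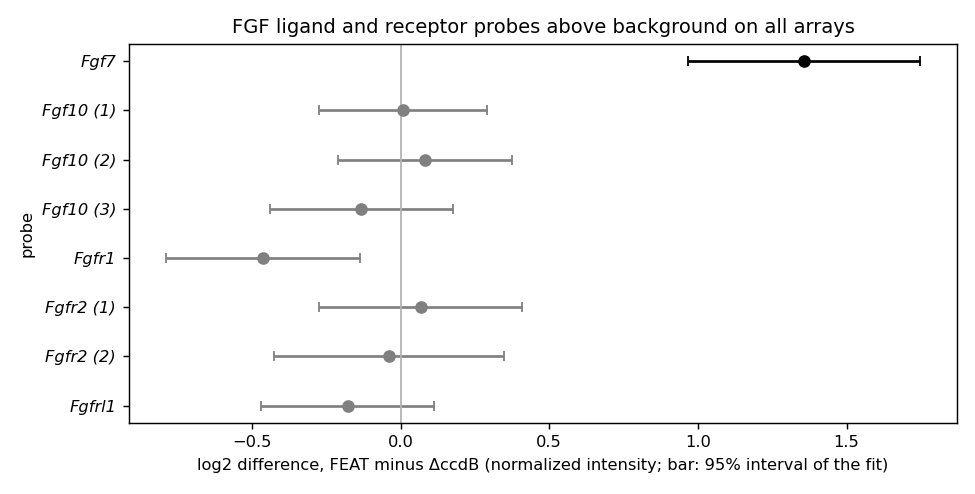
Log2 difference, FEAT minus ΔccdB, of the ligand and receptor probes above background on all 6 arrays, with the 95% interval of the fit, black where the adjusted p is under 0.05. Fgf7 lies at 1.36, the 3 Fgf10 probes between -0.13 and 0.083, and the receptor probes between -0.46 and 0.068.

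Binding proteins and heparan sulfate core proteins hold these ligands at the cell surface and in the matrix. Of 17 such genes, 9 were above background on all arrays, near the 45.5% of all named genes. Of 13 tested, limma called 0, with 3 at an unadjusted p under 0.05 (0.225% and 10.1% of all genes tested). Their median log2 difference was 0.090. The glypican gene Gpc1 read 9032, 7628 and 9520 in the control clones in numbered order and 6922, 6274 and 6132 in FEAT-3, FEAT-15 and FEAT-20, with no overlap, which 14.1% of all probes tested had (log2 difference -0.46, adjusted p = 0.412). Flrt2, a membrane protein that binds fibroblast growth factor receptors, had 0.56 (adjusted p = 0.351), and the perlecan gene Hspg2 0.58 on its brightest probe and 0.54 on the other (adjusted p = 0.420 and 0.532). Without ΔccdB-1 the brightest Hspg2 probe had 0.37. Gpc6 had 0.25 (adjusted p = 0.609) and was above background on 4 of 6 arrays.

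Enzymes that build or trim heparan sulfate had a median of 0.11 over 14 tested genes, and 10 of the 18 on the array were above background on all arrays. Limma called 0 of them, with 1 at an unadjusted p under 0.05 (0.225% and 10.1% of all genes tested). That gene was Sulf2, a sulfatase that removes sulfate groups from heparan sulfate outside the cell, at 992 ± 240 in the ΔccdB clones and 644 ± 149 in those with FEAT (SD over 3 clones), a log2 difference of -0.71 (adjusted p = 0.434), or -0.43 without FEAT-20. Hs2st1, which adds sulfate to heparan sulfate, had -0.26 (-0.13 without ΔccdB-3) and Extl3, an enzyme of chain synthesis, 0.25 (adjusted p = 0.652 and 0.672). Hpse, the heparanase gene, was not above background on any array.

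Inside the cell, adaptors and kinases of the ERK pathway had a median of 0.088. Of 12 tested genes limma called 0, with 0 at an unadjusted p under 0.05 (0.225% and 10.1% of all genes tested). Gab1, Shc1, Ptpn11 and Nras had 0.27, 0.26, 0.22 and 0.16 (adjusted p = 0.621, 0.636, 0.674 and 0.742). Feedback inhibitors and the PEA3 factors, which are switched on by fibroblast growth factor signals, had a median of -0.14 over 9 tested genes. Limma called 0 of these, with 3 at an unadjusted p under 0.05 (0.225% and 10.1% of all genes tested). The PEA3 factors Etv4 and Etv5 had -0.78 and -0.76, the inhibitor Spred2 -0.42, and the ERK phosphatase Dusp6 0.31 on its brightest probe (adjusted p = 0.342, 0.523, 0.325 and 0.679). Etv5 had -0.40 without ΔccdB-3. Dusp6 had 0.15 without ΔccdB-2, 0.51 without ΔccdB-3 and 0.18 without FEAT-15.

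The sodium channel genes and Mapk8ip2, whose proteins bind Fgf13, were near or below background like Fgf13: 0 of 5 genes lay above the limit on all arrays. Of 4 tested, limma called 0, with 0 at an unadjusted p under 0.05 (0.225% and 10.1% of all genes tested). The median log2 difference was -0.050. Scn8a and Scn3a were each above the limit on 1 of 6 arrays, with differences of 0.45 and -0.30 (adjusted p = 0.634 and 0.692). Without ΔccdB-2 Scn8a had 0.18 and Scn3a -0.15, without FEAT-20 Scn8a had 0.26, and Scn3a had -0.46 without FEAT-3 and -0.11 without FEAT-15. Scn2a was above it on 5 arrays, with -0.14 (adjusted p = 0.810), and Mapk8ip2 on none.

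**Figure D5:**
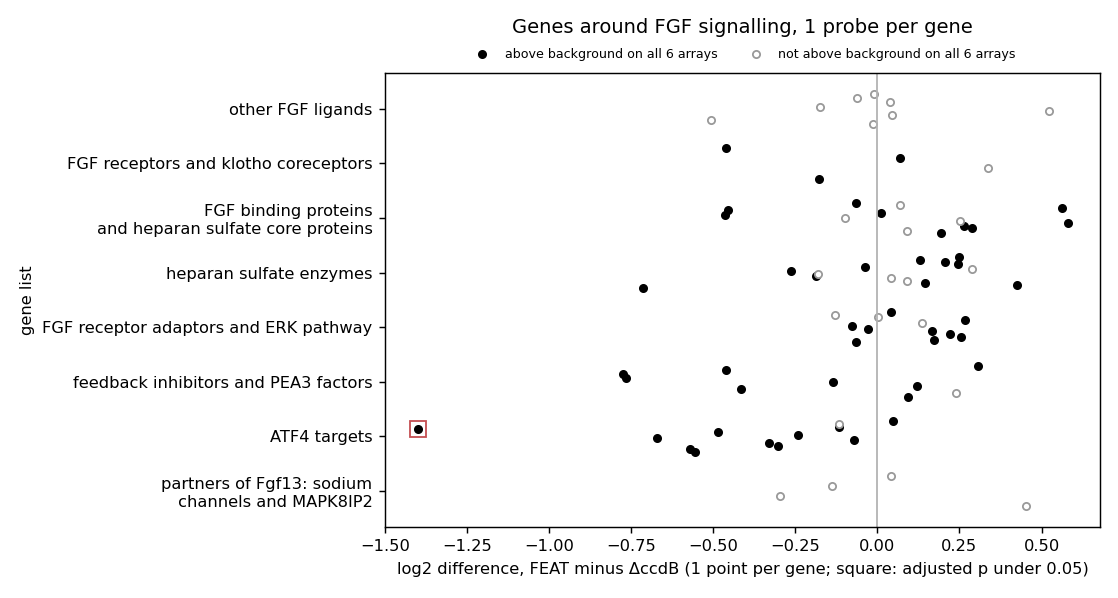
Log2 difference, FEAT minus ΔccdB, of each tested gene of the lists around fibroblast growth factor signalling, 1 point per gene, black where its probe is above background on all 6 arrays and open otherwise. The square marks Chac1 at -1.40, the 1 gene of these lists with an adjusted p under 0.05.

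The genes whose brightest probe followed Fgf7 most closely over the 6 clones were Pcdha11, Kcnmb2 and Shcbp1, with Pearson's r of 0.991, 0.991 and 0.988 among 13314 genes. Shcbp1 read 552 to 809, and the other pair were not above background on any array, so their levels spanned little. For Fgf10 they were 8030453O22Rik, Tmem167 and Kcnn4, with r of 0.996, 0.995 and 0.983. Of these 3, 8030453O22Rik was not above background on any array. With 6 clones, and with the groups apart in Fgf7, genes can reach high values of r, and these are given as a description.

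Mean array intensity ran from 616 to 735, and 38.3% to 42.4% of probes lay above the limit. Fibroblast markers were present, with 8 of 8 genes above background on all arrays. Their summed intensity was 36171 to 37694 in control clones and 40092 to 48767 in FEAT clones, apart in the same direction as Fgf7. Limma called 0 of the 8, with 4 at an unadjusted p under 0.05 (0.225% and 10.1% of all genes tested). Their median log2 difference was 0.41. The part of this marker difference in that of Fgf7 was not tested. Of the markers of other cell types, those of endothelium, neurons, adipocytes and hepatocytes had 0 genes above background on all arrays. Macrophage markers had 1 of 4 (Cd14), with Ptprc, Adgre1 and Csf1r not above the limit on any array, and skeletal muscle 1 of 4 (Des). Epithelial markers had 2 of 7, Cdh1 and Krt14, the latter a keratin of basal epithelium at 15311 to 25479, and their summed intensity was 15789 to 25825 in control and 20112 to 25994 in FEAT clones.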

How the data were processed

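Per the labels' protocols, RNeasy total RNA of each of the 6 clones went through Illumina TotalPrep amplification and Cy3 labelling. The submitters' processing notes name BeadStudio without a version. The deposited files gave linear probe intensity with background not subtracted and no detection p. The authors' series table held the same intensity values times 1 factor per array (0.925 to 1.10), and served as an alternative. Signals were corrected with normexp at an offset of 16, quantile normalized and put on the log2 scale (R 4.3.3, limma 3.58.1). The planned neqc and detection filter need detection p, so normexp was fitted to the signals themselves and the top 60% of probes by mean were kept. The test was limma's lmFit and eBayes per probe, two-sided, with Benjamini-Hochberg adjustment over all 27169 probes. The steps were tested on simulated data. A single-gene exact permutation test of 3 against 3 cannot go below p = 0.1 and was not used.

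Intensities in the text are deposited values and differences are normalized log2 values. Of the probes, 34885 had 1 gene name in the platform annotation, 18 with several names were left unnamed, and 10378 had none here. Where a gene had several probes, the brightest tested one stood for it in counts by gene. The members and lists were chosen with earlier results of these data known. Named besides the 9 ligands were up to 4 genes per list with the smallest unadjusted p, any gene past the threshold and the 3 genes most like Fgf7 and Fgf10. Fgf12, Fgf23 and the marker genes were named after their values were seen.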

Additional observations from a re-analysis of the deposited data

How the results depend on the processing

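Alternatives were no background correction, a normexp offset of 50, the deposited series table, cyclic loess, no filter, the top 40% of probes, an intensity trend, robust eBayes, array weights, and leaving out each clone in turn. The number of ligand probes called, 1, was the same in the 9 settings with all clones and 0 to 1 with a clone left out. The Fgf7 log2 difference was 1.17 to 1.48 with a clone left out. The number of probes called on the whole array was 38 to 64 over the 9 settings and 0 to 158 with a clone left out. The number of called probes in the other lists, 1 (Chac1), was 0 with no background correction, with an offset of 50 and with the top 40% of probes, and 0 to 1 with a clone left out. The cause was not tested. Of 143 values of the 10 other tested ligand probes under these alternatives, 143 moved by less than the spread between clones. With the filter, intensity trend and robust settings a difference cannot move, here and among the genes of the lists. Leaving out a clone shifts its group mean by less than the SD of that group. Apart from the renewed normalization, such a fit could therefore not move a difference past the spread, here or in the lists. For the fits with a clone left out, staying within the spread is thus no test of the size. Of 467 values of the 32 named genes of the lists, 8 lost a call (Chac1), 5 moved further (Fgf3 and Spred2) and 0 gained one. Signal near background limits Fgf2, Fgf9 and the ligands with none above it. No paired analysis was possible because the groups share 1 clone number, which only names the clones.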
